A study of Mus musculus with 173 samples.

Results

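Members of the Sox family were followed through single-cell libraries of the adult mouse dentate gyrus, the part of the hippocampus where new granule neurons arise from neural stem cells throughout life. The members were Sox1, Sox2, Sox4, Sox5, Sox6, Sox8, Sox9, Sox11 and Sox21, taken as the rows of these names in the deposited expression table, 9 of 23307 genes. All 9 reached a TPM (a unit of transcript share, scaled by transcript length) of at least 1 in 5% of libraries and so belonged to the 12007 genes compared. Donor mice were C57BL/6, aged 8 to 12 weeks, and each library held total RNA of a single cell.

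Of the 172 libraries, 26 carried titles beginning with N, 4 with R and all others with C, and the labels do not spell these letters out. A cyan fluorescent protein (eCFP) row in the table differed in its medians, which were 8739 TPM (C), 44.6 TPM (N) and 12.0 TPM (R). The ranges of neighbouring classes overlapped: C libraries held 482 to 33811 TPM, N libraries 17.3 to 1306 TPM, R libraries 5.01 to 107.9 TPM. Genes found per library, counted from a TPM of 1, ranged from 1600 to 7192, with medians of 3701 in C, 3565 in N and 3240.5 in R. Sequencing depth is unknown because TPM keeps none. The labels tie no library to an animal, so each class counts as 1 sample. Every SD is therefore the spread between libraries, no test was possible, and a group difference is given as a difference of mean log2(TPM + 1), called past 1 log2 unit when it reaches 1 in size. On this scale the changes of low genes are understated. A gene at 0 is only said to be listed at 0.

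Sox proteins bind DNA through a high-mobility-group domain and act with partner factors. Sox1, Sox2 (subgroup B1) and Sox21 (subgroup B2) act in neural progenitors, where Sox1 and Sox2 hold the progenitor state and Sox21 is known to counter them. Sox9 and Sox8 (subgroup E) belong to glia and radial stem cells, Sox5 and Sox6 (subgroup D) lack an activation domain of their own and act in oligodendrocyte precursors and neurons, and Sox4 and Sox11 (subgroup C) are switched on as progenitors commit to the neuronal fate.

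Promoter sequences of 8 members matched by symbol in the RefSeq table (GRCm38.p6), and Sox9 was not among them. The 250 bases before the start of 4 members are shown, namely the pair Sox1 and Sox2, whose levels showed little rank relation between cells, and the pair Sox4 and Sox11, with a higher one. Capitals mark the CCAAT box (CCAAT) and the GC box (GGGCGG) on either strand.
Sox1 (GRCm38.p6, chr8:12395269-12395518, strand +): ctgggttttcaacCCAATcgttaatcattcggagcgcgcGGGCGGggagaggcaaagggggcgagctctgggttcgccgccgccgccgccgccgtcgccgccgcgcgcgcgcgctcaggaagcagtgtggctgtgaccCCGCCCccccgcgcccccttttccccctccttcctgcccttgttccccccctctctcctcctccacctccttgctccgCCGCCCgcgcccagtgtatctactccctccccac
Sox2 (GRCm38.p6, chr3:34649745-34649994, strand +): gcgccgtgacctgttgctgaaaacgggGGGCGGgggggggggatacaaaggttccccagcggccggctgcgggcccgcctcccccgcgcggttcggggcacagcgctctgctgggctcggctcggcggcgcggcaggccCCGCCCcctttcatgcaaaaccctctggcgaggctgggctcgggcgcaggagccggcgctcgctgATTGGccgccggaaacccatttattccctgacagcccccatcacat
Sox4 (GRCm38.p6, chr13:28953700-28953949, strand -): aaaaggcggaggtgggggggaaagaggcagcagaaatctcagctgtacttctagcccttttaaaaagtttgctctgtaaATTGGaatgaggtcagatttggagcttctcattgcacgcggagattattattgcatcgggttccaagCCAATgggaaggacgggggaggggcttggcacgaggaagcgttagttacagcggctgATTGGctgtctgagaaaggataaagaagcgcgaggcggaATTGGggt
Sox11 (GRCm38.p6, chr12:27342719-27342968, strand -): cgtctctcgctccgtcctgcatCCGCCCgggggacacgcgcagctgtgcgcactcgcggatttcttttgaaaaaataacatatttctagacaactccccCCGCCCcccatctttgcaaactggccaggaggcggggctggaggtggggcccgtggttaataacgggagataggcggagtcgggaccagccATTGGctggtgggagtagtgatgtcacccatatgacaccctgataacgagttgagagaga
The Sox4 window held 4 CCAAT boxes and 0 GC boxes, while the Sox11 window held 1 and 2, the Sox2 window 1 and 2, and the Sox1 window 1 and 3. Among 32851 RefSeq windows of the same length, 33.9% held a CCAAT box and 32.7% a GC box. GC content was 71.2% for Sox1, 72% for Sox2, 50.8% for Sox4 and 58% for Sox11, against a median of 52.4% over all windows. Neither TATAAA (in 12.4% of all windows) nor the Sox core ACAAT (27.7%) nor the Rbpj core GTGGGAA (5.42%) was present in these 4 windows. A match is a run of letters and no measured binding. The last bases of the Sox1 and Sox4 windows lie in an annotated transcript, which limits a comparison of the 4 windows. In the GENCODE M21 annotation Sox1, Sox2, Sox4, Sox11 and Sox21 are single-exon genes. Sox2 lies inside Sox2ot on the same strand and Sox8 overlaps 2810468N07Rik on the other strand, and these pairs are both in the table, so their values may share reads.

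Sox9 was the most abundant member in C cells, with levels from 0 to 3563 TPM and a median of 529.5 TPM. In N cells it ranged from 0.93 to 952 TPM with a median of 2.80 TPM, and the R libraries held 142.3, 1.12, 12.5 and 0.78 TPM. Most C libraries were therefore high and most N libraries low, although the ranges overlapped: 82.4% of C libraries and 15.4% of N libraries (4 of 26) reached 100 TPM. The mean was 8.20 ± 2.496 (SD between all C libraries) in C and 3.09 ± 2.57 (SD, n = 26) in N on the log2 scale, a difference of 5.11. Detection at 1 TPM was found in 99.3% of C libraries (exact Clopper-Pearson 95% interval 96.1% to 99.98%, which like all such intervals here covers counting error only) and in 96.2% of N libraries (80.4% to 99.9%). The classes were thus alike at this threshold only: 90.8% of C libraries reached 10 TPM, while 73.1% of N libraries lay below it.

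The SoxB genes were present in part of the C cells. Sox1 ranged from 0 to 1609 TPM in C with a median of 1.14 TPM, against 0 to 3.50 TPM with a median of 0.33 TPM in N. In C 55 libraries reached 10 TPM and in N none did, and the mean was higher in C by 2.64 log2 units. Sox2 ranged from 0 to 853 TPM in C (median 2.74) and from 0 to 380 TPM in N (median 0), with a difference of 1.64 log2 units. Detection at 1 TPM was seen in 60.6% of C libraries (52.02% to 68.7%) and 30.8% of N libraries (14.3% to 51.8%), and 3 N libraries held 10 TPM or more. The Sox2 difference depended on which N cells were counted: against the 6 N libraries left when those of the neuron-like, vascular-like and oligodendrocyte lineage-like clusters described further on were removed, it was -0.29. That value rests on 2 of the 6 libraries, N11 and N23, with Sox2 at 379.6 and 347.2 TPM, while the other 4 lay between 0 and 2.02 TPM. The 6 still included libraries with oligodendrocyte lineage markers, as N23 had an oligodendrocyte list mean of 6.39 and N10 and N1 had precursor list means of 7.02 and 4.01. Against the same 6 libraries Sox4 was lower in C at -1.51. Sox21 reached a TPM of 1 in 14.8% of C libraries (9.39% to 21.7%), with a highest value of 1013 TPM, and its mean differed from that in N by 0.56 log2 units.

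Sox5 had a median of 0.52 TPM in C (0 to 557 TPM) and of 0 in N (0 to 166 TPM), and its mean was higher in C by 1.80 log2 units. Sox6, its close relative, differed by only 0.54 log2 units, with highest values of 623 TPM (C) and 275 TPM (N). Sox11 reached a TPM of 1 in 45.8% of C and 46.2% of N libraries, Sox4 in 23.9% and 26.9%, and Sox8 in 17.6% and 15.4%. For these 3 genes the class means differed by 0.75, -0.31 and 0.22 log2 units. Against the 6 N libraries named above, the Sox11 difference turned to -0.81 and that of Sox6 to -0.02. Of the 6 N libraries with Sox4 at 10 TPM or more, 4 also reached a mean of 4 for oligodendrocyte precursor markers.

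Between C and N, 4 of 9 members were higher by at least 1 log2 unit (Sox1, Sox2, Sox5 and Sox9) and 0 were lower, against 9.98% and 4.19% of all 12007 genes. The median difference was 0.75 over the members and 0.17 over all genes. When each library was rescaled, the background became 5.89% higher and 7.20% lower with a median of 0.03, and the members' count stayed at 4 higher and 0 lower. All ranges of C and N overlapped.

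**Figure D1:**
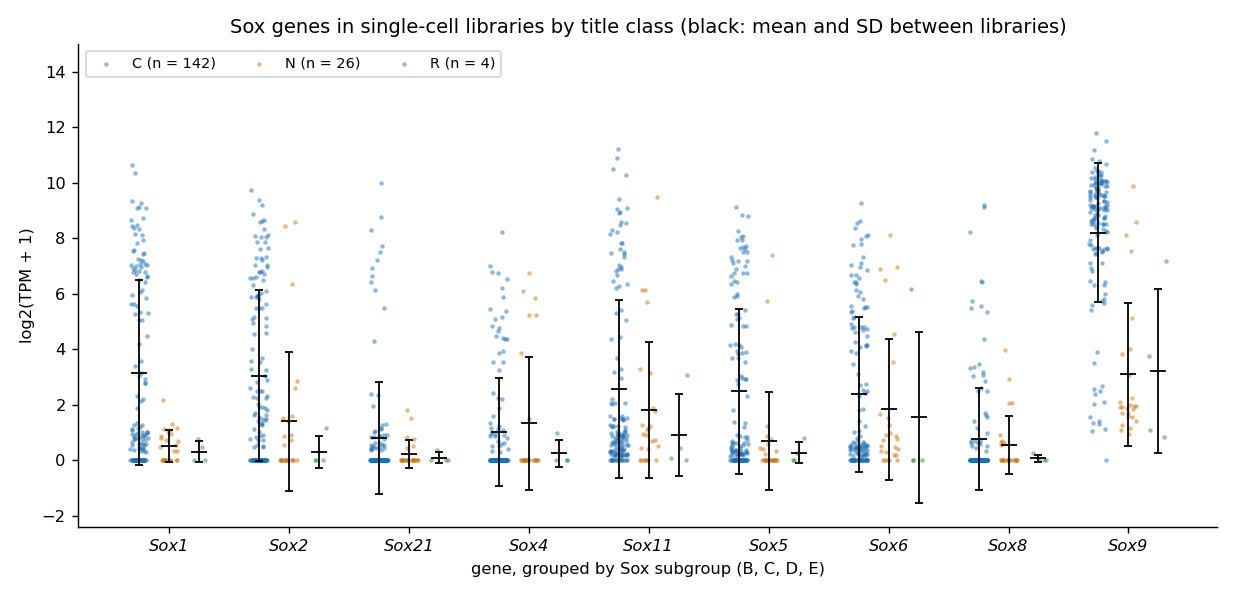
Levels of the 9 Sox genes as log2(TPM + 1) in each library of classes C, N and R (points), with the mean and SD between libraries in black; genes are ordered by Sox subgroup. Sox9 stands between 0 and 3563 TPM in C with most libraries high, while the other members have many libraries at or near 0 in every class.

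The 4 R libraries, all with a mature neuron marker list mean above 6, held most members below 1 TPM. The exceptions were Sox9 in R1, R2 and R3, Sox2 and Sox11 in R1 (Sox11 at 7.48 TPM) and Sox6 in R3. Sox1 was at 0.69 TPM in library R1 and 0.40 TPM in R4 and listed at 0 in the other two, and Sox2 was at 1.23 TPM in R1 and listed at 0 in the rest. Sox4 and Sox5 stayed below 1 TPM in all 4. Sox6 was at 70.8 TPM in R3, whose microglia marker list mean was 5.38, and listed at 0 in the others. Against C, 5 of 9 members were lower by at least 1 log2 unit, with differences of -4.99 for Sox9, -2.85 for Sox1, -2.75 for Sox2, -2.22 for Sox5 and -1.66 for Sox11, and 0 were higher; among all genes 22% were lower and 20.9% higher, and the medians were -1.66 over the members and -0.36 over all genes. Against N, Sox2 and Sox4 were lower by at least 1 log2 unit (-1.11 and -1.08) and 0 members were higher, where 17.5% of all genes were lower and 23.8% higher. With 2 of 9 members the latter count lies near the background.

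The order of the mean levels in C ran from Sox9 through Sox1 (3.16 ± 3.33), Sox2 (3.04 ± 3.09), Sox11 (2.56 ± 3.21), Sox5 (2.49 ± 2.98), Sox6 (2.37 ± 2.79), Sox4 (1.02 ± 1.95) and Sox21 (0.79 ± 2.02) to Sox8 (0.77 ± 1.85), each ± the SD between C libraries. Except for the step below Sox9, each neighbouring pair differed by less than the SD between libraries. The median library held 4 members at a TPM of 1 or more in C, 2 in N and 1.5 in R. No library held all 9.

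Clusters were made without any Sox gene, marker gene or eCFP, and were named afterwards from marker lists. Of the 8, 3 were stem cell-like (clusters 3, 7 and 8, with 55, 18 and 34 libraries); their astrocyte list means lay between 3.68 and 4.20, so the name does not set stem cells apart from astrocytes, and H2-M3, a major histocompatibility class I gene, led cluster 7. Another was intermediate progenitor-like (28 libraries, 22 of them cycling C cells; its leading genes were cell cycle genes). Its intermediate progenitor list mean of 3.32, against 0.42 to 1.48 in the other clusters, lay below its own stem cell list mean of 5.04. Others were vascular-like (13), oligodendrocyte lineage-like (10) and neuron-like (6). A cluster of 8 libraries carried markers of several types, with a median of 6181 genes per library, and was left unnamed.

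Sox9 was high in most libraries of the stem cell-like clusters. In cluster 8 every library lay between 200.4 and 1752 TPM with a mean of 9.36 ± 0.67 (SD, n = 34), and in cluster 7 the mean was 9.14 ± 1.21 (SD, n = 18). It was 7.86 ± 3.07 (SD, n = 55) in cluster 3 and 7.49 ± 2.07 (SD, n = 28) in the intermediate progenitor-like cluster, where the median was 207 TPM. The vascular-like and oligodendrocyte lineage-like clusters were low, with medians of 3.11 and 1.74 TPM. The neuron-like cluster was spread from 0.78 to 384 TPM.

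Sox11 had a median of 189 TPM and a mean of 6.95 ± 2.99 (SD, n = 28) in the intermediate progenitor-like cluster, and means between 0.78 and 2.97 in all other clusters. It reached a TPM of 1 in 24 of 28 intermediate progenitor-like libraries and in 19, 7 and 11 of the libraries of the stem cell-like clusters 3, 7 and 8. Sox4 had its highest mean there too, at 2.41 ± 2.66 (SD, n = 28), but the oligodendrocyte lineage-like cluster followed at 2.06 ± 2.75 (SD, n = 10) and came first when 30 principal components were used. Sox1 and Sox2 differed little between the stem cell-like and intermediate progenitor-like clusters: Sox1 means were 3.15, 3.22 and 2.88 in clusters 3, 7 and 8 and 3.80 in cluster 1, and Sox2 means were 3.09, 2.77, 3.58 and 2.49. Each of these differences was smaller than the SD between libraries. Sox5 had its highest mean of all clusters in stem cell-like cluster 8 (3.33 ± 3.18 (SD, n = 34)).

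**Figure D2:**
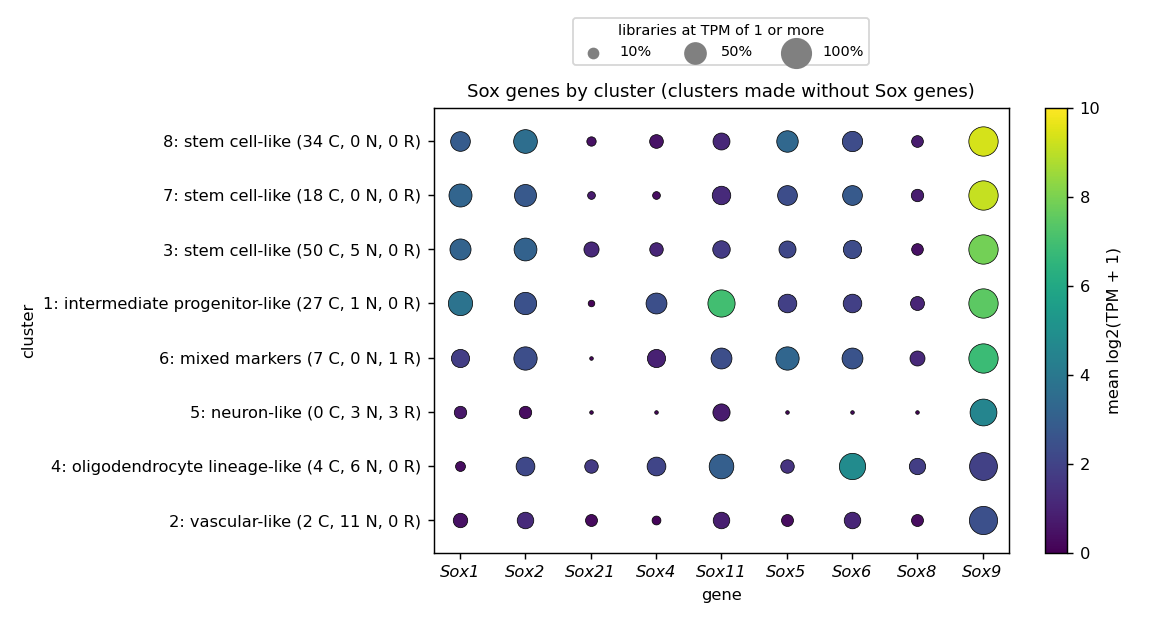
Mean level (colour, log2(TPM + 1)) and share of libraries at a TPM of at least 1 (circle size) of the 9 Sox genes in the 8 clusters. Sox9 is highest in the stem cell-like clusters, Sox11 in the intermediate progenitor-like cluster (mean 6.95) and Sox6 in the oligodendrocyte lineage-like cluster (mean 4.78).

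The oligodendrocyte lineage-like cluster had other leading members. Sox6 was at a TPM of 1 or more in 8 of 10 libraries of that cluster, with a median of 67.6 TPM and a mean of 4.78 ± 3.08 (SD, n = 10), against means of 0.25 to 2.81 elsewhere. Sox10, the subgroup E factor that drives oligodendrocyte differentiation and no member of the group, had a mean of 5.13 ± 3.82 (SD, n = 10) there. Sox8 and Sox21 had their highest cluster means there as well (1.80 and 1.74), but these rested on few libraries. Sox8 reached a TPM of 1 in 3 of 10 (median 0.58 TPM) and Sox21 in 2 of 10 (median 0.18 TPM). For Sox21 this share of 20% lay below the 25.5% of stem cell-like cluster 3. With 6 clusters, made by joining some of the 8, the cluster of highest mean had another name for all 3 members. Sox6 and Sox8 were highest in a cluster named neuron-like and Sox21 in a stem cell-like one. The neuron-like cluster of the 8 had the lowest means of Sox6 and Sox8 (0.25 and 0.11). The joined cluster of that name must therefore hold libraries from outside it, and its lead does not place these genes in neurons. Across clusters, 6 C libraries reached a mean of 4 for the list of oligodendrocyte precursor markers. All 6 held Sox9 below 10 TPM (0 to 4.17 TPM) and Sox6 at 21.4 TPM or more (median 194.6, highest 394 TPM). The 6 N libraries with such a list mean were more mixed. Their Sox9 lay below 3 TPM in 5 and at 185.6 TPM in N24, which had the highest list mean of all libraries (9.495) and Sox6 at only 1.89 TPM. Sox6 was listed at 0 in N1 and reached 274.6 TPM in N10. Within C, the 6 libraries made up 6 of the 13 C libraries with Sox9 below 10 TPM; of the C libraries with more Sox9, 0 had such a list mean. The libraries were singled out after their values were seen, and 2 of the 6 were cycling. Of 10 other Sox genes 4 passed the low-value filter, and 2 of these 4 were lower in C than in N by at least 1 log2 unit, Sox10 at -1.99 and Sox7 at -1.09. Sox17 and Sox18, known from endothelium, had their highest cluster means (1.06 and 1.61) in the vascular-like cluster.

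Cycling C cells were those with an S-phase or a G2 and mitosis marker list mean of at least 3, which gave 28 cycling libraries and left all other C libraries as non-cycling; 11 libraries lay between 2 and 4. Sox11 ranged from 0.14 to 1427 TPM in cycling cells with a median of 116.8 TPM, and from 0 to 2384 TPM with a median of 0.73 TPM in non-cycling cells. The ranges overlapped, with 78.6% of cycling and 37.7% of non-cycling libraries at a TPM of at least 1. The mean was 5.98 ± 3.31 (SD, n = 28) against 1.72 ± 2.57 (SD between non-cycling libraries), a difference of 4.26 log2 units. Sox4 followed at 1.84 ± 2.45 against 0.82 ± 1.76, a difference of 1.02, with medians of 0.16 and 0 TPM.

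Sox9 was lower in cycling cells, with a median of 193.2 TPM against 568 TPM and a difference of -1.34 log2 units, although 20 of 28 cycling libraries still held 100 TPM or more. Sox2 and Sox5 differed by -0.86 and -0.90, Sox6 by -0.41, Sox21 by -0.21, Sox8 by 0.17 and Sox1 by 0.45, all within 1 log2 unit. In all, 2 of 9 members were higher and 1 was lower by at least 1 log2 unit, against 15.3% and 4.51% of all genes, and the median difference was -0.21 over the members and 0.03 over all genes. Without the 14 C libraries whose mean for another cell type's list reached 4 (3 cycling), the counts were 2 higher and 3 lower, since Sox2 and Sox5 passed 1 log2 unit at -1.07 and -1.35. With the threshold for cycling lowered to 2, only Sox11 (3.85) was past 1 log2 unit. Sox4, at 0.96, and Sox9, at -0.90, fell just short. The share of all genes was not computed for either of these settings, so their counts of members have no background beside them.

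**Figure D3:**
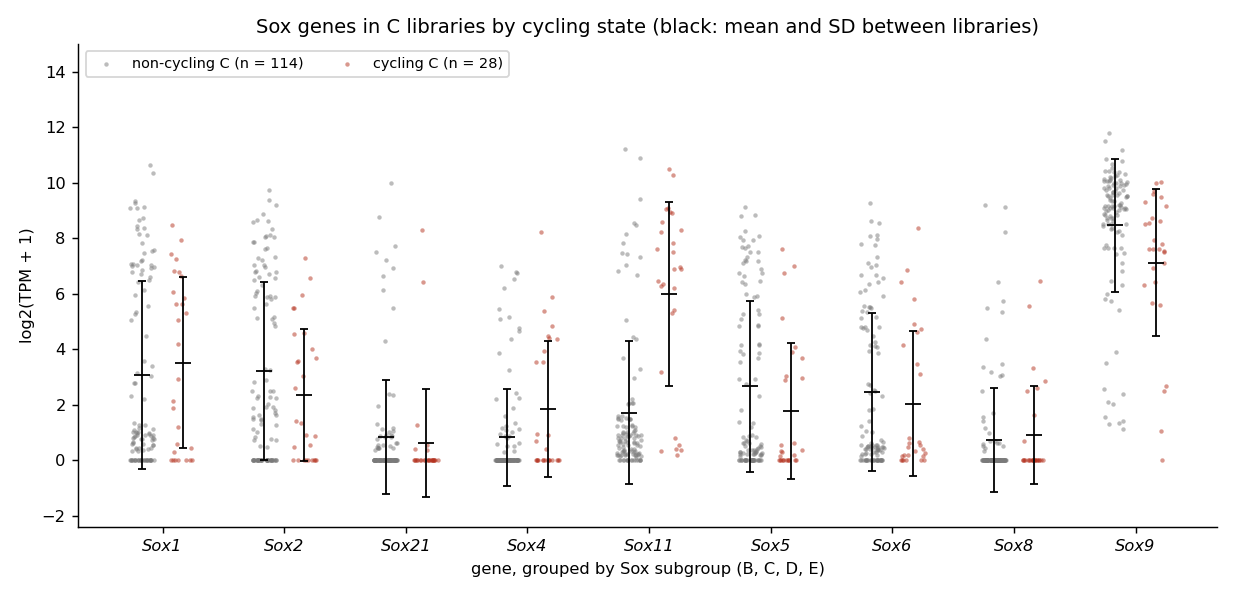
Levels of the 9 Sox genes as log2(TPM + 1) in non-cycling (grey) and 28 cycling (red) C libraries, with the mean and SD between libraries in black. Sox11 has a median of 116.8 TPM in cycling and 0.73 TPM in non-cycling libraries, and the 2 sets overlap for every gene.

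Cycling state and cluster largely coincided, as 22 of 28 cycling cells lay in the intermediate progenitor-like cluster. Within it, Sox11 was at 6.58 ± 3.21 (SD, n = 22) in cycling and 8.10 ± 1.60 (SD, n = 5) in non-cycling cells, so the difference turned to -1.52. Sox4 also turned, to -1.22, as did Sox9, to 0.97, Sox1, to -1.53, and Sox8, to -1.56. Among cells of the stem cell-like clusters Sox11 was at 3.24 ± 3.41 in 4 cycling and 1.34 ± 2.16 in 98 non-cycling libraries. By marker list, Sox11 had medians of 40.3 TPM in the 10 libraries past the threshold in S phase genes alone, 493 TPM in the 5 with G2 and mitosis genes alone and 123.4 TPM in the 13 with both, while Sox9 medians were 379.9, 193.2 and 135.5 TPM. The SDs of these small sets overlap.

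High Sox11 was not confined to cycling cells. Of 28 C libraries with at least 100 TPM, 13 were non-cycling, 5 of them in the intermediate progenitor-like cluster and 6 in stem cell-like clusters. The others lay in the cluster with markers of several types. Of these 13, 3 had a mature neuron list mean of at least 4. The highest Sox11 value of all, 2384 TPM, belonged to a non-cycling library. In all, 6 cycling libraries held less than 1 TPM, and all 6 of these held Sox9 at 10 TPM or more, as did 24 of all 28 cycling libraries. Sox11 also moved with the number of genes found per library (Spearman rho 0.34 over C), and that number had a median of 3939.5 in cycling and 3651.5 in non-cycling C cells. Among libraries with at least 3000 genes the Sox11 difference was 4.26.

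Eomes (Tbr2), the transcription factor of intermediate neuronal progenitors, split the C cells another way, into 26 with a TPM of at least 1 and all others below it. Sox11 had medians of 39.8 and 0.74 TPM, and means of 5.03 ± 4.28 (SD, n = 26) and 2.003 ± 2.64 (SD between the others). The difference of 3.03 was joined by 1.68 for Sox4 and -1.13 for Sox9, so that 2 members were higher and 1 lower by at least 1 log2 unit where 7% and 4.13% of all genes were. Among cycling cells alone, the 12 with Eomes held Sox11 at a median of 429 TPM and the 16 without at 58.8 TPM, and Sox4 at 17.3 and 0 TPM; Sox4 reached a TPM of 1 in 8 of 12 against 2 of 16. Among non-cycling cells the gap in Sox11 was smaller, with means of 2.47 ± 3.73 (SD, n = 14) and 1.61 ± 2.37 (SD, n = 100). The difference between these 2 gaps was not tested. The 2 sets with Eomes were also unlike in its level, with a median of 107.3 TPM in the cycling set and 2.44 TPM in the non-cycling one. Sox1 in cycling cells went the other way, at 2.46 ± 3.03 with Eomes and 4.31 ± 2.97 without.

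**Figure D4:**
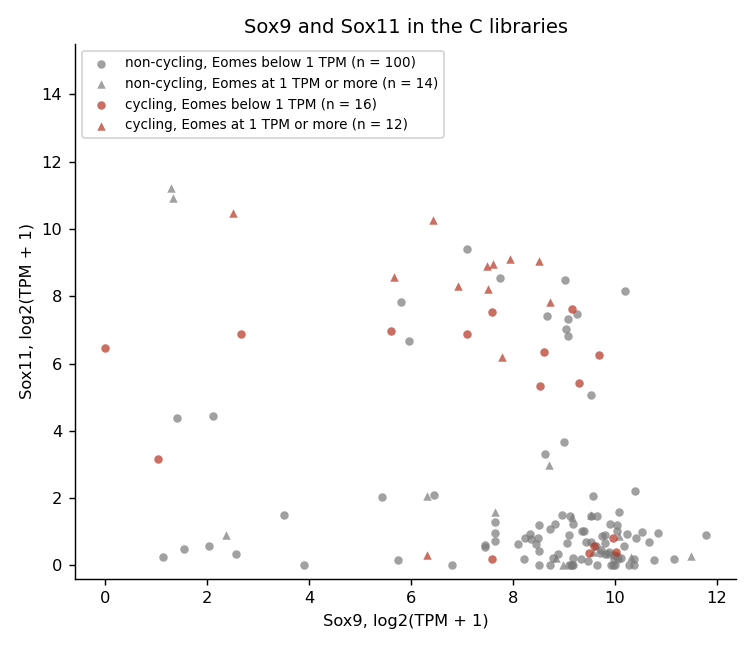
Sox9 (horizontal) and Sox11 (vertical), both as log2(TPM + 1), in each C library; red marks cycling and grey non-cycling libraries, triangles those with Eomes at 1 TPM or more. Most libraries lie at high Sox9 and low Sox11, and 19 hold both at 100 TPM or more.

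Across C cells Sox9 and Sox11 ran in opposite directions, with a Spearman rho of -0.38 over all C libraries, which share a scaling to 1 total and unknown depth. Both genes could nevertheless be high in the same cell: 19 libraries held at least 100 TPM of each, and 13 of these lay in the intermediate progenitor-like cluster. Within non-cycling cells rho was -0.26. Over all C libraries Sox4 followed Sox11 (rho 0.31), with Sox11 present in 67.6% of libraries that held Sox4 and in 38.9% of the rest. Sox4 and Sox9 were opposed (rho -0.28). Both relations of Sox4 were weaker within non-cycling cells, with a rho of 0.16 for Sox11 and -0.17 for Sox9.

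The remaining pairs were weakly related. Of 36 pairs, 5 had a rho of at least 0.2 in size, the other two being Sox8 with Sox11 (-0.23) and Sox1 with Sox9 (0.21). Sox1 and Sox2, which are close relatives with overlapping functions, showed little relation: rho was -0.06, 43 libraries held both at a TPM of 1 or more, 32 only Sox1, 43 only Sox2 and 24 neither. Sox2 was present in 57.3% of libraries with Sox1 and in 64.2% of those without. Sox5 and Sox6 had a rho of 0.12, and Sox6 was present in 55.7% of libraries with Sox5 and 34.6% without it. Sox2 and its host transcript Sox2ot had a rho of 0.03, with 59 libraries holding both. For sparse values like these a weak correlation is no finding.

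Genes with the most similar pattern were sought for the 7 members present in at least 20% of C libraries, among 6306 candidates. Sox9 was most like Aldoc (rho 0.49), Gstm1 (0.45), Slc1a2 (0.45) and Slc1a3 (0.45), of which Aldoc is a glycolytic enzyme of astroglia and the Slc1 genes encode glial glutamate transporters, and least like Tmsb4x (-0.38) and Top2a (-0.37). Sox11 was most like Elavl4, a neuronal RNA-binding protein (0.52), Hmgb2 (0.46), Cdk2ap1 (0.45) and Cep170 (0.45), and least like the bicarbonate transporter Slc4a4 (-0.47) and Aldoc (-0.44). Aldoc thus stood at opposite ends for the 2 genes. No other member had a gene above 0.39. The highest were Glud1 for Sox5 (0.39), Flna for Sox4 (0.36), Mfsd1 for Sox6 (0.34), Scamp1 for Sox2 (0.34) and Ephb2 for Sox1 (0.27). With eCFP, rho was 0.25 for Sox9, -0.22 for Sox11 and at most 0.16 in size for the other 7. Without the 14 C libraries high in markers of other cell types, no member reached 0.2 in size.

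An order of the C cells in the stem cell-like and intermediate progenitor-like clusters was drawn from the first principal component of variable genes, with rho 0.95 between the orders from 2 separate sets of genes. Sox genes took no part. The direction was set so that intermediate progenitor minus stem cell list means tended to rise toward the end called the last. Stem cell markers could still be the higher ones there. In C75, the library ranked last, the list means were 5.11 (stem cell) and 3.01 (intermediate progenitor). Sox11 was low in most libraries until the end of the order: its means over 5 successive bins of 26, 26, 26, 26 and 25 cells were 1.72, 1.31, 1.27, 1.62 and 7.02, with medians of 0.69, 0.31, 0.88, 0.63 and 182 TPM. It reached a TPM of 1 in 23 of 25 libraries of the last bin and in 6 to 12 of 26 in each of the others. Single high values lay earlier. The highest Sox11 and Eomes values of all C libraries (2384 and 2744 TPM) were both in the second bin. Sox4 went from 0.39 to 2.44, with 2 of 26 and 13 of 25 libraries at a TPM of 1. Sox1 went from 2.57 to 3.69, although its mean TPM fell from 145.1 to 46.3.

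Sox9 stood at 8.17, 9.02, 8.73 and 9.14 in the first 4 bins and at 7.66 ± 2.12 (SD, n = 25) in the last. Its median there was 245 TPM, against 649.6 TPM in the bin before and 534 TPM in the first. The Sox9 difference of the last from the first bin was only -0.51, and it lay between -1.12 and 0.83 under other settings. Between the last and first bins, 3 of 9 members were higher by at least 1 log2 unit (Sox11 by 5.30, Sox4 by 2.05 and Sox1 by 1.12) and 0 were lower; among all genes 25.7% were higher and 3.88% lower, so the count of 3 lies near the background while the Sox11 difference is large. The Sox1 difference was past 1 log2 unit in only 5 of 10 other settings. The all-gene median was 0.28, or 0.16 after rescaling. Of the last bin 21 of 25 libraries were cycling, against 0, 0, 1 and 4 in the bins before it, so order and cycling cannot be told apart at that end. Among non-cycling cells alone the Sox11 difference was 0.93, and without the intermediate progenitor-like cluster it was -0.49. Over the whole order rho was 0.40 for Sox11, 0.28 for Sox4, -0.21 for Sox9 and -0.20 for Sox21, 0.12 for Sox8, and at most 0.05 in size for Sox1, Sox2, Sox5 and Sox6.

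**Figure D5:**
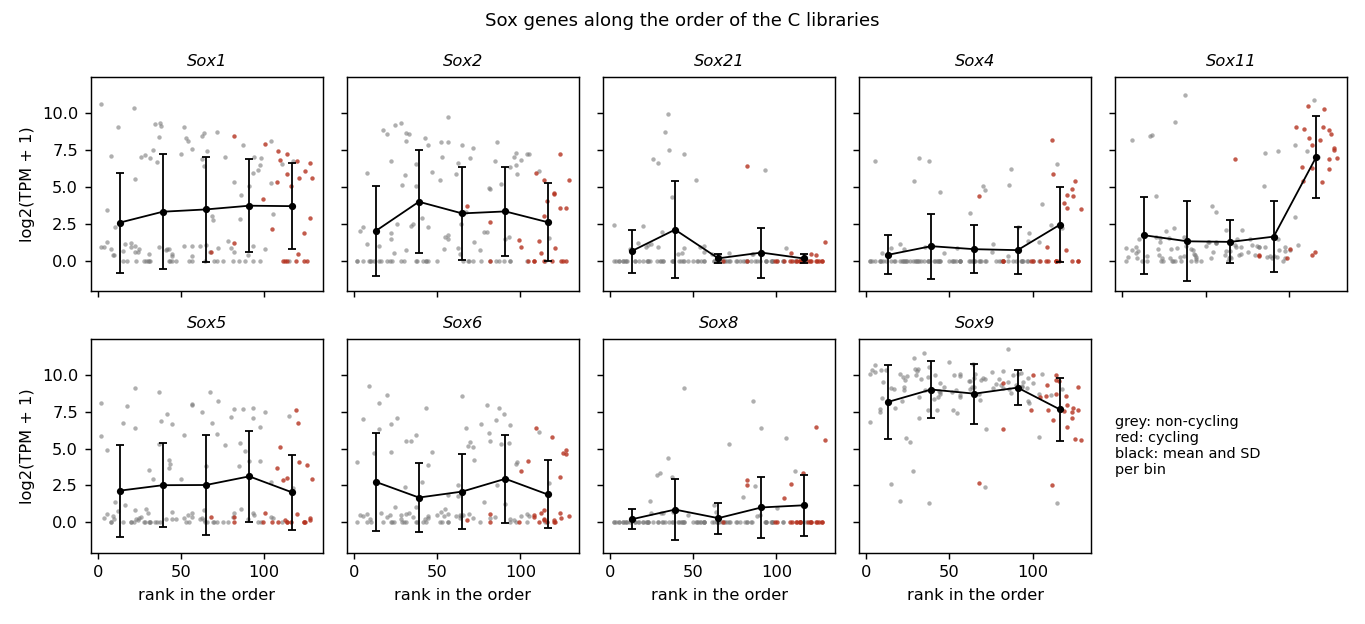
Levels of the 9 Sox genes as log2(TPM + 1) against the rank of the C libraries in the order (grey non-cycling, red cycling), with the mean and SD of each bin in black. Sox11 is low in most libraries until the last bin, where its mean is 7.02. Sox9 is 8.17 in the first bin, 9.14 in the bin before the last and 7.66 in the last.

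Partners and targets of the family were read from a list of 19 genes, of which 16 passed the low-value filter. Between C and N 9 were higher by at least 1 log2 unit and 0 lower, where 9.98% and 4.19% of all genes were. Among the 9 were Mmd2 (4.91), a Sox9 target of glial progenitors, Nfix (2.79), Nfib (2.08) and Nfia (1.66), nuclear factor I proteins that act beside Sox9 in gliogenesis, Pax6 (1.99), Notch1 (1.86) and the Sox2 partner Pou3f3 (1.62). The other Sox9 targets of the list did not pass 1 log2 unit: Apcdd1 differed by -0.38 and Zcchc24 by 0.91, the latter with a lower mean TPM in C (51.8) than in N (70.01). In cycling against non-cycling C cells 7 were higher and 1 lower, against 15.3% and 4.51% of all genes. Tubb3, a tubulin of neurons and a Sox11 target, was higher by 2.92, Nfix by 2.79, Pou3f2 by 2.26, Nfib by 1.996, Tead2, a Sox4 target, by 1.42, Pax6 by 1.33 and Zcchc24 by 1.07, while Pou3f3 was lower (-1.75). Dcx, a neuroblast gene that Sox11 also targets, differed by only 0.09. The class III POU factors Pou3f2 and Pou3f3 therefore differed in opposite directions. Along the order 8 were higher and 0 lower, against 25.7% and 3.88% of all genes, with Nfix at 5.24, Tubb3 at 3.47 and Nfib at 3.08. The medians over the list were 1.23, 0.89 and 1.097 log2 units, against 0.17, 0.03 and 0.28 over all genes.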

How the data were processed

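The labels describe RNA of single cells prepared with the NuGEN Ultralow V2 protocol. The authors deposited 1 table of TPM per gene, estimated with RSEM on mm9, per the submitters' processing notes; its version, the aligner and cell filters: not given in the sources used here. Columns sum to 1 total within rounding, so depth is unknown, and 78.5% of values are listed at 0. Of 173 samples in the labels 171 match 1 column each; the column C27 fits a pair of titles and was used once, as a C library. The classes hold 142 C, 26 N and 4 R libraries, 114 C libraries were non-cycling, 116 had Eomes below a TPM of 1, and 129 were ordered. Values were analysed as log2(TPM + 1) with Python 3.11.15, numpy 2.4.6, pandas 2.3.3 and scipy 1.17.1, for genes at a TPM of at least 1 in 5% of libraries. Clusters were made by Ward's method on 15 principal components of 2000 variable genes (30 components as an alternative), without list genes, Sox genes or eCFP. The order used 1000 variable genes from each of 2 separate sets of genes (seed 1), and its first components held 5.92% and 6.24% of the variance. All 15 marker and gene lists (154 genes) and the members were chosen with earlier results of these data known. The text names every member. For each of 7 members the 4 genes outside the family with the highest rho and the 2 with the lowest were taken. Predicted genes are unnamed, and for 5 members the highest only is printed. List genes past 1 log2 unit are named in part, and not at all for the R and Eomes comparisons. No doublets were called, and cells of unnamed animals are not replicates, so no p-value was computed. The steps for differences and order were tried on simulated data. For the order these were normal log values without the many zeros of the real table, so the trial says nothing about the order found here. No coordinates on mm9 were used; promoter windows are on GRCm38.p6, and protein sequences were not used here.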

Additional observations from a re-analysis of the deposited data

Results flagged for a closer look

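In the 4 R libraries, a group small enough for 1 library to decide a mean, 6 members had 1 value that stood apart from the other 3. Sox2 was at 1.23 TPM, Sox4 at 0.98 TPM and Sox11 at 7.48 TPM in library R1, where Sox9 was also highest (142.3 TPM). Sox6 was at 70.83 TPM, Sox8 at 0.2 TPM and Sox21 at 0.3 TPM in R3. For every one of these genes except Sox11 the other 3 libraries were listed at 0, so any value above 0 stands apart by construction, also one of 0.2 TPM. The rate of about 1 in 20 groups that chance gives does not hold for such genes. Without R3 the Sox6 difference from C went from -0.83 to -2.37 log2 units.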

How the results depend on the processing

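The pseudocount moved several counts of members past 1 log2 unit. At 0.1 there were 5 for R minus N, 9 for R minus C and 5 for the last minus the first bin of the order. At 10 there were 2 for C minus N, 0 for R minus N and 1 for the bins. Rescaled libraries gave 1 for R minus N, where 23.3% of all genes were higher and 18.8% lower. Leaving out each R library in turn gave 1 to 4. In the cycling comparison the count was 5 without C libraries high in other cell type lists and 1 with a threshold of 2. In the Eomes comparison it was 5 within cycling cells. Apart from the rescaled libraries, the share of all genes past 1 log2 unit was not computed at these settings. The counts there, also that of 9 for R minus C, cannot be set against a background. Of the members whose main difference was past 1 log2 unit, Sox2 (C minus N) reversed to -0.29 without N libraries of 3 other clusters, as did Sox4 (-1.22), Sox9 (0.97) and Sox11 (-1.52) between cycling and non-cycling cells of the intermediate progenitor-like cluster alone, and Sox11 (-0.49) between bins of an order without that cluster; the cause was not tested. Without C libraries high in other lists, 0 members, in place of 2, had a rho of 0.2 with eCFP. With 6 clusters the cluster of highest mean was named neuron-like for Sox6 and Sox8 and stem cell-like for Sox21. That neuron-like cluster joined clusters of the main set, so its name does not place Sox6 and Sox8 in neurons. The cluster of highest mean changed to a stem cell-like one for Sox1 with 10 clusters. For Sox4 it changed to the oligodendrocyte lineage-like one with 30 principal components. The alternatives inside cluster 1, within cycling states and for pairs, eCFP and Eomes were chosen after seeing the data. Of 12007 genes the low-value filter left all 9 members in, so dropping it changed the background alone. No paired analysis was possible because the numbers in the titles only name cells. Depth is unknown, and R rests on 4 libraries.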
